A study of Bos taurus with 18 samples.

Results

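Among the plasma miRNAs of Japanese Black steers, 4 were followed here because of their link to energy and fat metabolism: *bta-miR-103*, *bta-miR-107*, *bta-miR-378* and *bta-miR-378b*. They were chosen by name from the 1071 miRNAs of the deposited tables, by a rule that used no measured value but was written with earlier results of these data known. Plasma was collected from 3 fattening steers at about 20, 25 and 30 months of age, under the same feeding system. Each plasma sample gave an exosomal (EX) library, from RNA inside small vesicles released by cells, and a non-exosomal free-circulating (FC) library, from RNA bound to protein outside them. There were thus 18 libraries in 6 groups of 3, with the same 3 steers at each age, and no steer was treated or left unfattened for comparison. All ages and both fractions come from castrated males of 1 breed, and age cannot be told apart from the sampling date or from the time on feed.

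Plasma holds miRNAs released by many tissues and blood cells, so a level here is a mixture and does not name its source. In these bulk samples fewer releasing cells and less RNA per cell cannot be told apart. The family of miR-103 and miR-107 lies within introns of pantothenate kinase genes, which start the synthesis of coenzyme A, the carrier of fatty acyl groups. In mice the family is known to lower insulin sensitivity in liver and fat. The miR-378 family is best known from *PPARGC1B*, a coactivator of mitochondrial and lipid genes, whose intron carries the miR-378 hairpin, and mice lacking that locus are known to resist obesity on a fatty diet.

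The mature sequences show which of these miRNAs can be told apart by sequencing and which share targets. They are given 5′ to 3′ as the deposited count table holds them, with the seed (bases 2 to 8, the part that pairs with target mRNAs) in capitals, and with *bta-miR-378c* and *bta-miR-378d* as the remaining miR-378 rows considered and *bta-miR-16b* for its related 5′ end.
bta-miR-103: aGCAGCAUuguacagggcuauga
bta-miR-107: aGCAGCAUuguacagggcuauc
bta-miR-378: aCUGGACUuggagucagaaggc
bta-miR-378b: aCUUGACUuggagucagaaggc
bta-miR-378c: aCUGGACUuggagucagaagu
bta-miR-378d: cUGGACUUggagucagaagacc
bta-miR-16b: uAGCAGCAcguaaauauuggc

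*bta-miR-103* and *bta-miR-107* were identical over bases 1 to 21, counted from the 5′ end. They differed by G22C and by 1 further base at the 3′ end of *bta-miR-103*, so a read that stops before base 22 cannot be assigned to either. Among the 1030 known bovine miRNAs of the table, no other had their seed. The first 7 bases of both, AGCAGCA, were the seed of 7 others, *bta-miR-15a*, *bta-miR-15b*, *bta-miR-16a*, *bta-miR-16b*, *bta-miR-195*, *bta-miR-424-5p* and *bta-miR-497*. *bta-miR-378b* differed from *bta-miR-378* by G4U, which lies inside the seed, and shared bases 5 to 22 with it. *bta-miR-378c* had the seed of *bta-miR-378* and differed from it by G21U, with 1 base fewer. *bta-miR-378d* carried bases 2 to 20 of *bta-miR-378* as its bases 1 to 19, so its seed was moved by 1 base and was shared with no other known miRNA. In the RefSeq gene table of ARS-UCD2.0, the precursors MIR103-1, MIR103-2 and MIR107 lie within *PANK3*, *PANK2* and *PANK1*. MIR378-1 lies within *PPARGC1B* and MIR378-2 within *CALCR*, the calcitonin receptor gene, whereas MIR378B lies in no protein-coding gene. The tables give no coordinates for the genome the reads were mapped to, and none are given here.

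The libraries held 991354 to 2778618 counts assigned to miRNAs in EX and 3615234 to 12088735 in FC, with the lowest median total of each fraction at 30 months. CPM-normalized counts (CPM) divide each count by this total. A count of 3, taken as the floor, was worth 1.08 to 3.03 CPM in the EX libraries and 0.248 to 0.83 CPM in the FC libraries. The floor covers counting error only, since PCR copies of 1 molecule are not independent. In the EX libraries at 30 months, TMM factors, which correct for a change in composition, were 1.17 to 1.24, against 0.742 to 1.09 at the younger ages, whereas the FC factors at 30 months (0.979 to 1.10) lay within the range of the younger ages (0.734 to 1.17). EX levels at 30 months are therefore lower on the TMM scale than in CPM, and the changes up to 30 months in EX are given with TMM, beside the values with library totals alone for *bta-miR-103*, *bta-miR-107*, *bta-miR-378* and their families. The median log2 fold change of all miRNAs tested between 25 and 30 months was -0.51 in EX and -0.20 in FC with TMM, and -0.04 and -0.08 when libraries were scaled by their totals alone. The lymphocyte markers *bta-miR-150* and *bta-miR-342* fell in both fractions, with log2 fold changes of -4.06 and -2.31 in EX and -3.38 and -1.81 in FC between 25 and 30 months (edgeR FDR 0.0045, 0.0079, 0.0136 and 0.0353). Both also passed in both fractions with library totals alone, at -3.59 and -1.84 in EX and -3.22 and -1.64 in FC. The defining muscle markers were scarce, and the 5 of them summed to 48.4 to 698 CPM across the 18 libraries.

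*bta-miR-103* was the most abundant of the 4 miRNAs in every library. Its mean CPM over 9 libraries was 3182 ± 814 (SD) in EX and 2805 ± 716 in FC, which ranked 48th and 52nd among all miRNAs. *bta-miR-107* followed with 1540 ± 404 in EX and 1382 ± 480 in FC (ranks 69 and 70), and *bta-miR-378* with 666 ± 189 and 624 ± 172 (rank 87 in both). *bta-miR-378b* had 5.86 ± 6.69 CPM in EX and 3.54 ± 1.60 in FC. This order held in each of the 18 libraries, and *bta-miR-107* and *bta-miR-378* came nearest in EX at 30 months, with 1193 against 995 CPM in steer 2, and in FC at 25 months, with 946 against 770 CPM in steer 3. In the filter of CPM > 5 in at least 3 of 9 libraries, all 4 miRNAs passed in EX and 3 in FC, where *bta-miR-378b* did not.

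**Figure D1:**
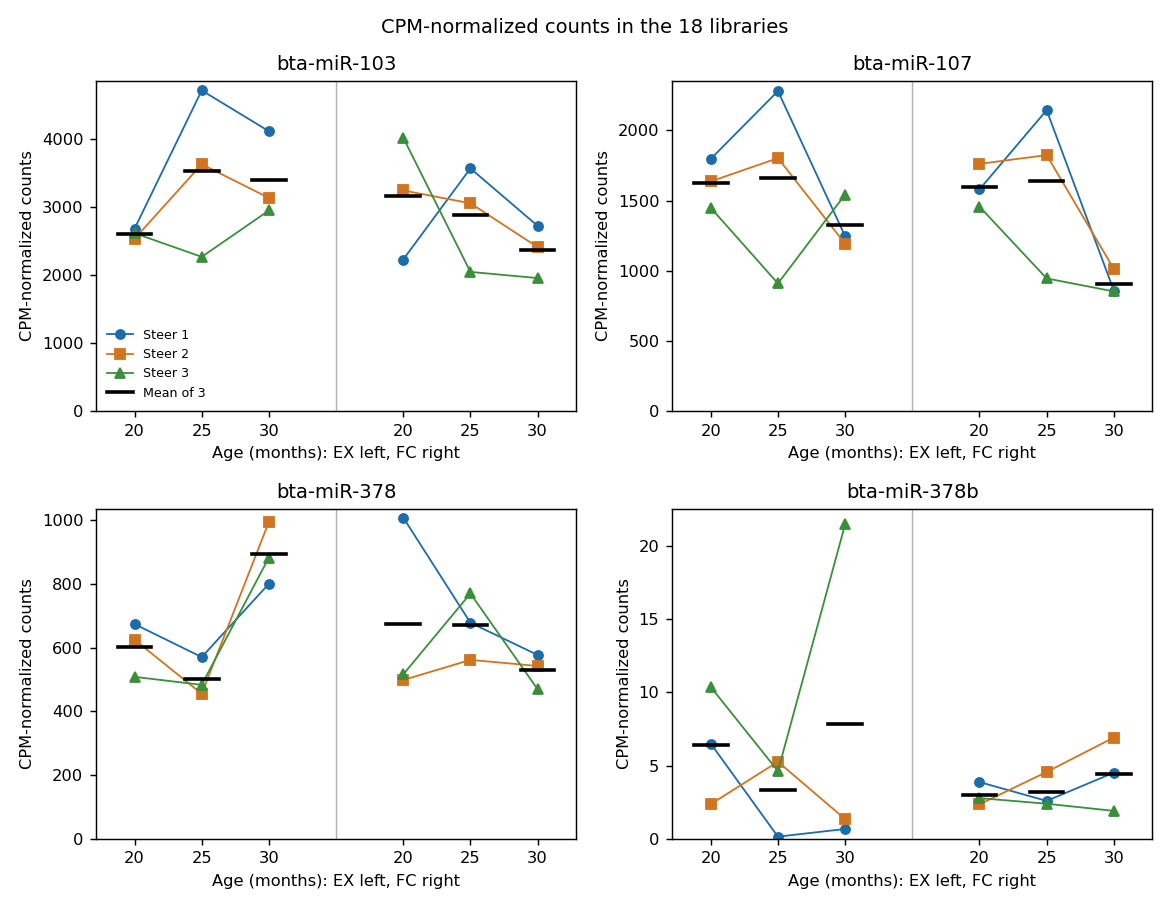
CPM-normalized counts of the 4 miRNAs (vertical axes, each starting at 0) by age in months, EX on the left and FC on the right of each panel. Each symbol is 1 library, lines join the libraries of a steer, and black bars are means of 3. *bta-miR-107* in FC lay at 853 to 1013 CPM at 30 months, and *bta-miR-378* in EX at 800 to 995 CPM.

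The first question was whether the 4 miRNAs changed with age during fattening. Of the 21 tests made on 3 or 4 miRNAs over 3 age pairs and 2 fractions, 1 passed FDR < 0.05 by edgeR's quasi-likelihood test: *bta-miR-107* fell in FC between 25 and 30 months. With |log2 fold change| below 1, it did not meet the threshold for a differentially existed miRNA (DE-miRNA), which also needs |log2 fold change| > 1. Between 25 and 30 months, 18.7% of 358 miRNAs tested in FC and 14.8% of 345 in EX passed FDR < 0.05, so the 1 of 3 called in FC and 0 of 4 in EX stand beside a background of many calls. In FC 11.7% were called lower and 15.6% were DE-miRNAs. This background rested on the steers, and without steer 3 the calls were 10 of 336 in FC and 1 of 316 in EX. From 20 to 30 months 14.2% were called in EX and 7.26% in FC, and none of the 4 tested in EX or the 3 tested in FC. In some other settings *bta-miR-107* in FC passed over these months: the likelihood ratio test (FDR 0.0199) and DESeq2 (FDR 0.0198). It also passed in edgeR with CPM > 5 in all 9 libraries (FDR 0.0412) and with counts at 30 months divided by their most common count (FDR 0.0385). It missed the threshold in the remaining settings.

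*bta-miR-107* in FC had 1580, 1762 and 1457 CPM at 20 months in steers 1, 2 and 3. It had 2145, 1825 and 946 CPM at 25 months and 859, 1013 and 853 CPM at 30 months. It was lower at 30 than at 25 months in 3 of 3 steers, and the low value of steer 3 at 25 months made the groups overlap in CPM. On the TMM scale they did not overlap, with 1288 to 1872 at 25 months and 779 to 1010 at 30 months, as in 26% of the miRNAs tested in FC. All 3 libraries at 30 months lay below all 3 at 20 months, a separation in that direction seen in 22.1% of the miRNAs in CPM and in 23.2% on the TMM scale. The log2 fold change from 25 to 30 months was -0.90 ± 0.23 (SE; 95% interval -1.42 to -0.38; edgeR FDR 0.0298), and from 20 to 30 months -0.81 ± 0.23 (-1.33 to -0.29; FDR 0.0683). The call between 25 and 30 months was lost when steer 1, steer 2 or steer 3 was left out (log2 fold changes -0.668, -0.918 and -1.003; FDR 0.202, 0.125 and 0.0773), and with scaling by library totals alone (-0.80, FDR 0.0770). The call was also lost with the count rows as deposited. Over all miRNAs in FC the calls between these ages were 67 of 358 with all steers. They were 26 of 332, 51 of 337 and 10 of 336 without steers 1, 2 and 3. With the rows as deposited they were 10 of 372, and with library totals alone 51 of 358. In the same FC libraries the 2 lymphocyte markers summed to 79355 to 230827 CPM at 20 and 25 months and to 14651 to 26926 CPM at 30 months. The 3 red cell markers summed to 10720 to 46802 CPM at the younger ages and 21521 to 34381 CPM at 30 months, with log2 fold changes from 25 to 30 months of -1.68 for *bta-miR-451* (edgeR FDR 0.0516), 0.41 for *bta-miR-486* (FDR 0.552) and -0.56 for *bta-miR-144* (FDR 0.461). The part of these cells in the lower *bta-miR-107* was not tested.

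*bta-miR-107* in EX had 1797, 1637 and 1449 CPM at 20 months, 2281, 1803 and 910 CPM at 25 months and 1247, 1193 and 1544 CPM at 30 months. Steers 1 and 2 were lower at 30 than at 25 months and steer 3 was higher. On the TMM scale the libraries at 30 months lay at 960 to 1279 and overlapped those at 25 months (1226 to 2485). They lay below those at 20 months (1552 to 1954), with 3 of 3 steers lower. The share of miRNAs in EX that separate in this way is not given here. The log2 fold change was -0.70 ± 0.29 between 25 and 30 months (95% interval -1.36 to -0.04; edgeR FDR 0.145) and -0.63 ± 0.29 between 20 and 30 months (FDR 0.177). With library totals alone these were -0.25 (FDR 0.664) and -0.27 (FDR 0.659). Leaving out 1 steer gave -0.47 without steer 1 and -1.10 without steer 3 between 25 and 30 months, and neither passed (FDR 0.492 and 0.0778). The change from 25 to 30 months did not differ detectably between EX and FC, with a difference of 0.09 (95% interval -0.63 to 0.81; FDR 0.938), in a test that called 4.83% of 373 miRNAs. With library totals alone this difference was 0.56 (FDR 0.502). In EX the steers were most uneven at 25 months, where steer 3 was the low sample, with a coefficient of variation of *bta-miR-107* of 41.8% in CPM and 34.1% on the TMM scale, against 12.2% and 14.7% at 20 and 30 months on the latter. In FC it was 37.9% in CPM at 25 months but 19.6% on the TMM scale, where it was 22.0% at 20 months. Of the red cell markers in EX, *bta-miR-451* fell between 25 and 30 months (log2 fold change -2.20, edgeR FDR 0.0269). *bta-miR-144* was at -1.76 (FDR 0.0767) and *bta-miR-486* at -0.04 (FDR 0.976). From 20 to 30 months *bta-miR-451* was at -1.84 (FDR 0.0469). Library totals alone gave it -1.78 (FDR 0.0552) and -1.47 (FDR 0.0918). The part of red cells in the EX values was not tested.

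*bta-miR-103* had 2681, 2533 and 2616 CPM in EX at 20 months, 4714, 3628 and 2267 CPM at 25 months and 4114, 3134 and 2949 CPM at 30 months. In FC it had 2228, 3244 and 4019 CPM at 20 months, 3568, 3055 and 2046 CPM at 25 months and 2723, 2411 and 1955 CPM at 30 months. The coefficient of variation among the steers was 2.85% in EX at 20 months and 34.7% at 25 months in CPM, and 10.4% and 26.9% on the TMM scale. In EX all 3 libraries at 30 months exceeded those at 20 months in CPM, as in 17.7% of miRNAs tested, whereas the fitted log2 fold change on the TMM scale was -0.0026 ± 0.24 (FDR 0.999) and with library totals alone 0.35 (FDR 0.388). Between 25 and 30 months the log2 fold change was -0.47 ± 0.24 in EX (95% interval -1.01 to 0.07; FDR 0.210) and -0.38 ± 0.28 in FC (-1.03 to 0.26; FDR 0.346). With library totals alone the EX value was -0.027 (FDR 0.9505) and the FC value -0.28 (FDR 0.541). In FC all 3 steers were lower at 30 than at 25 months, with overlap in CPM and none on the TMM scale, as in 26% of the miRNAs tested. In EX 2 of 3 were lower in CPM and 3 of 3 on the TMM scale. Summing *bta-miR-103* and *bta-miR-107*, which removes the question of how shared reads were divided, gave log2 fold changes of -0.55 ± 0.23 in EX and -0.52 ± 0.26 in FC between 25 and 30 months (edgeR FDR 0.149 and 0.182), and with library totals alone -0.091 in EX (FDR 0.862) and -0.45 in FC (FDR 0.287).

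*bta-miR-378* in EX had 674, 625 and 508 CPM at 20 months, 570, 455.1 and 483 CPM at 25 months and 800, 995 and 883 CPM at 30 months. All 3 libraries at 30 months were higher than the 6 younger ones, and the mean CPM was 1.78 times that at 25 months and 1.48 times that at 20 months. Groups that did not overlap, with the older one higher, were seen between 25 and 30 months in 18% of the miRNAs tested in EX. On the TMM scale the libraries at 30 months lay at 687 to 800, above those at 25 months (462 to 651), as in 10.7% of miRNAs, and overlapped those at 20 months (544 to 746). On the TMM scale the log2 fold change was 0.35 ± 0.27 (95% interval -0.27 to 0.97; edgeR FDR 0.440) between 25 and 30 months and 0.21 ± 0.27 (FDR 0.646) between 20 and 30 months, and neither passed. With library totals alone, the change between 25 and 30 months was 0.83 ± 0.27, which also missed the threshold (FDR 0.0804), and that between 20 and 30 months was 0.57 (FDR 0.198). Without steer 2 the TMM value between 25 and 30 months was 0.17 (FDR 0.840). The size of the EX change therefore depended on the scaling, and the direction did not under any of the settings tried.

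*bta-miR-378* in FC had 1008, 498 and 516 CPM at 20 months, 678, 562 and 770 CPM at 25 months and 577, 542 and 469 CPM at 30 months. The value of steer 1 at 20 months stood above the others, and the ages overlapped in CPM. On the TMM scale the libraries at 30 months (480 to 541) lay below those at 25 months (563 to 1049), as in 26% of the miRNAs tested. They overlapped those at 20 months (491 to 862). All 3 steers were lower at 30 than at 25 months, and the log2 fold change was -0.49 ± 0.32 (95% interval -1.23 to 0.24; edgeR FDR 0.296). Its size rested on steer 3, and without that steer the value was -0.038 (FDR 0.956). Thus between 25 and 30 months *bta-miR-378* was higher in EX and lower in FC in each of the 3 steers. The difference between these changes was 0.73 ± 0.42 on the log2 scale (95% interval -0.16 to 1.62; FDR 0.361) and did not pass. With library totals alone it was 1.19 ± 0.35 (FDR 0.0591). The same difference from 20 to 30 months was 0.44 ± 0.42 (FDR 0.626), in a test that called 6.17% of miRNAs. It was 0.16 without steer 1, 0.84 without steer 2 and 0.90 with library totals alone (FDR 0.915, 0.477 and 0.165).

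**Figure D2:**
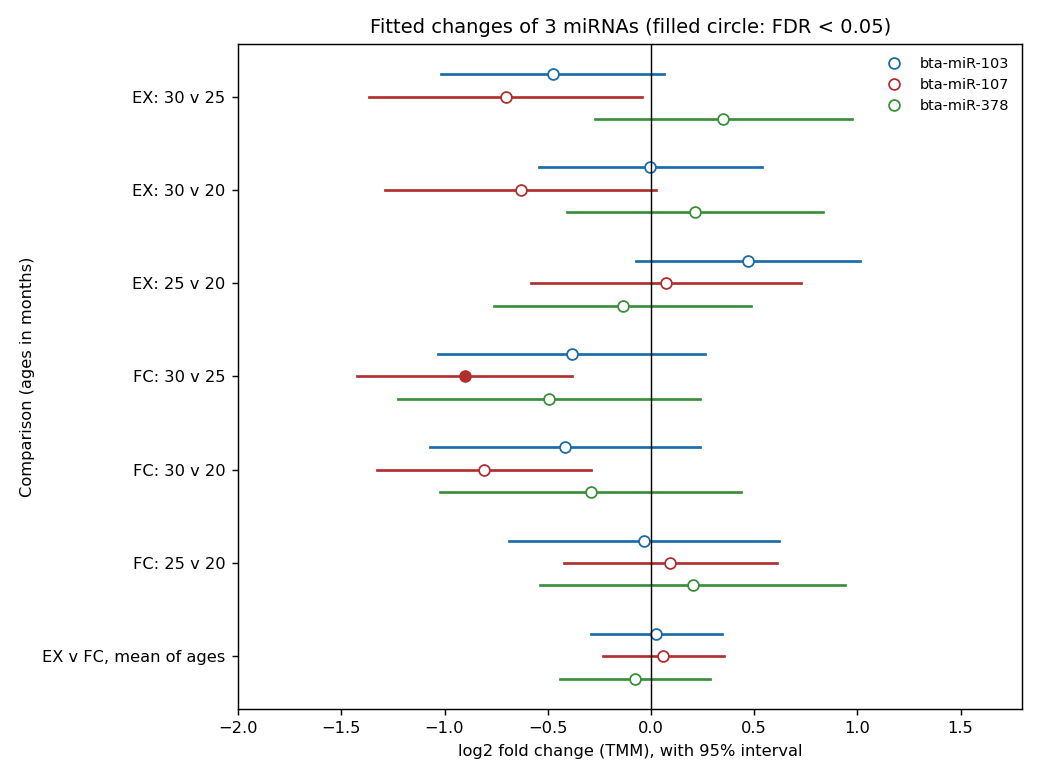
Log2 fold changes (horizontal axis) of *bta-miR-103*, *bta-miR-107* and *bta-miR-378* for each comparison (vertical axis), from edgeR fits with TMM factors. Circles are estimates, lines are 95% intervals, and a filled circle has FDR < 0.05. The filled circle is *bta-miR-107* in FC between 25 and 30 months, at -0.90, and the 3 comparisons of EX with FC lie near 0.

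Between 20 and 25 months no tested change passed, of the 4 miRNAs in EX and of the 3 in FC, where *bta-miR-378b* was not tested. In EX 1 of 345 miRNAs passed FDR < 0.05 (0.29%; 8 at an unadjusted p below 0.05), and in FC 0 of 358 by edgeR (0%; 13 at an unadjusted p below 0.05) and 0 by DESeq2 (15 at an unadjusted p below 0.05). The largest of the fitted values among *bta-miR-103*, *bta-miR-107* and *bta-miR-378* was that of *bta-miR-103* in EX, 0.47 ± 0.24 (95% interval -0.07 to 1.02), which was 0.25 without steer 1 and 0.67 without steer 3. The others lay between -0.14 and 0.20.

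*bta-miR-378b*, with its changed seed, was near the limit of detection in EX. In steers 1, 2 and 3 it had 13.3, 6.58 and 21 counts at 20 months. At 25 months it had 0.33, 9.67 and 11.3 counts, and at 30 months 1.33, 1.33 and 23.3. Steer 3 at 30 months was the highest library, at 21.5 CPM against 0.669 and 1.34 CPM in steers 1 and 2, and 3 of 9 libraries were below 2 counts. Counts that are not whole arise where a read was divided among several matches. Which miRNAs or precursors shared it cannot be told here. Its fitted changes between ages in EX had standard errors of 2.02 to 2.14 on the log2 scale, with an interval of -4.98 to 4.83 between 25 and 30 months, so no change could be detected with counts this low and this uneven among the steers. In FC its counts were 7.25 to 46.8 in all 9 libraries and its CPM 1.91 to 6.92, with group means of 3.00, 3.18 and 4.45 CPM at 20, 25 and 30 months that overlapped, and it was not tested between ages because it did not pass the filter. It had 0.46% of the counts of *bta-miR-378* in FC at 20 months and 0.82% at 30 months, means of 3 libraries each.

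The second question was whether the vesicle and non-vesicle fractions carried these miRNAs at different levels. Averaged over the 3 ages, the log2 difference of EX from FC was 0.03 ± 0.15 for *bta-miR-103* (95% interval -0.29 to 0.34; edgeR FDR 0.969), 0.06 ± 0.14 for *bta-miR-107* (-0.23 to 0.35; FDR 0.859) and -0.08 ± 0.17 for *bta-miR-378* (-0.44 to 0.29; FDR 0.846). In this comparison 20.4% of 373 miRNAs passed FDR < 0.05, and none of these 3 did. The intervals allow EX levels up to 1.28-fold above FC and FC levels up to 1.36-fold above EX. The sign of the difference of *bta-miR-378* turned with the scaling, to 0.05 with RLE size factors and 0.07 with library totals alone. The median over all 373 miRNAs was -0.38, so the 3 miRNAs lay above it. In paired CPM values, EX exceeded FC in 7 of 9 plasma samples for *bta-miR-103*, in 5 of 9 for *bta-miR-107* and in 4 of 9 for *bta-miR-378*. For *bta-miR-378b* the interval was -1.84 to 2.002, and no statement on its fraction can be made.

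Because both sit in the same library, the ratio of *bta-miR-103* to *bta-miR-107* does not depend on scaling. It does depend on how reads ending before base 22 were divided between them, and the share of such reads was not measured here. In EX the ratios of steers 1, 2 and 3 were 1.49, 1.55 and 1.81 at 20 months. They were 2.07, 2.01 and 2.49 at 25 months, then 3.30, 2.63 and 1.91 at 30 months. The ratio was higher at 25 than at 20 months in 3 of 3 steers, by 0.47, 0.38 and 0.47 on the log2 scale (mean 0.44 ± 0.05, SD). The groups did not overlap, and how many other ratios of 2 miRNAs separate in this way was not counted. At 30 months steers 1 and 2 were higher again and steer 3 was lower. In FC the ratios were 1.41, 1.84 and 2.76 at 20 months. They were 1.66, 1.67 and 2.16 at 25 months, then 3.17, 2.38 and 2.29 at 30 months. From 25 to 30 months it was higher in 3 of 3 steers, by 0.93, 0.51 and 0.08. With 3 steers, the exact two-sided sign-flip permutation test cannot give a p below 0.25. It gave 0.25 for EX between 20 and 25 and between 20 and 30 months and for FC between 25 and 30 months, and 0.583 after Benjamini-Hochberg adjustment over 7 comparisons of this ratio. EX and FC did not differ detectably in the ratio, with a mean log2 difference of -0.01 ± 0.19 (exact permutation p = 1), and EX was above FC in 6 of 9 plasma samples.

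**Figure D3:**
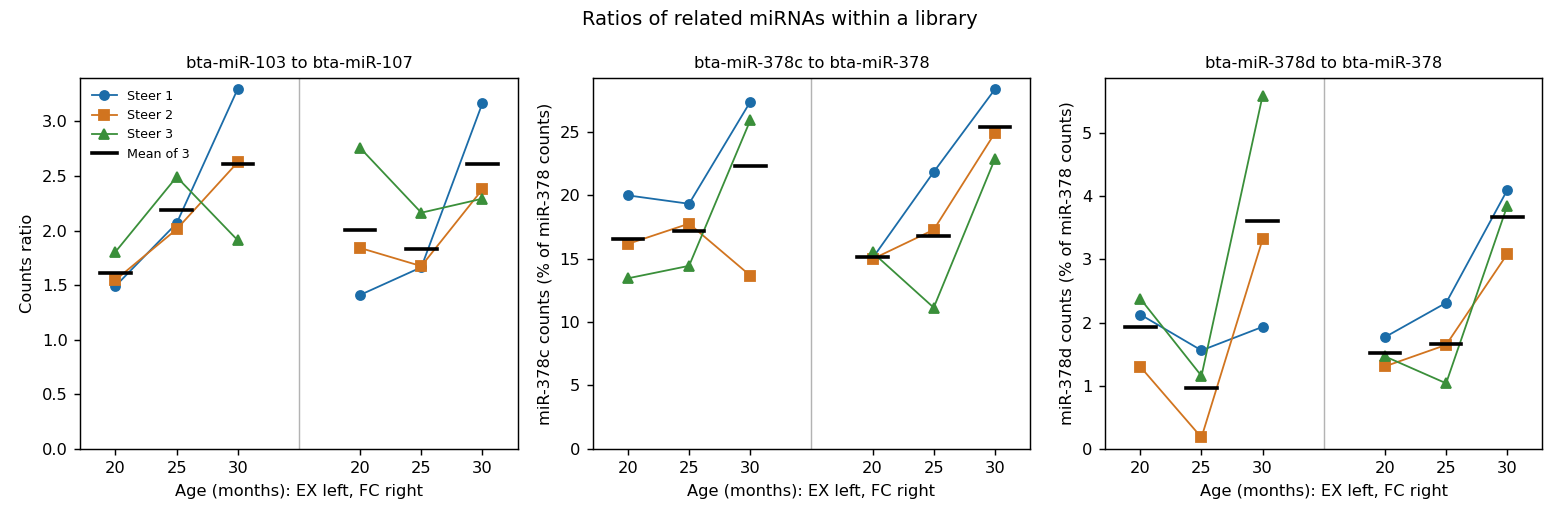
Ratios of related miRNAs within each library by age in months, EX on the left and FC on the right of each panel: *bta-miR-103* counts over *bta-miR-107* counts, and *bta-miR-378c* and *bta-miR-378d* counts as a percent of *bta-miR-378* counts. Symbols are libraries, lines join a steer and black bars are means of 3. In FC the *bta-miR-378d* percent was 3.09 to 4.10 at 30 months and at most 2.31 before.

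Within the miR-378 family, *bta-miR-378c* and *bta-miR-378d* had a higher share beside *bta-miR-378* in FC at 30 months than before. *bta-miR-378c* had 15.04%, 14.97% and 15.5% of the counts of *bta-miR-378* at 20 months in FC. It had 21.8%, 17.3% and 11.1% at 25 months, then 28.4%, 24.9% and 22.9% at 30 months. The 3 libraries at 30 months were above the 6 younger ones. *bta-miR-378d* had 1.77%, 1.31% and 1.46% at 20 months. It had 2.31%, 1.65% and 1.04% at 25 months, then 4.10%, 3.09% and 3.85% at 30 months, again with no overlap. *bta-miR-378b* did not separate in this way. It had 0.384%, 0.472% and 0.538% of the counts of *bta-miR-378* at 20 months in FC. It had 0.382%, 0.813% and 0.311% at 25 months, then 0.783%, 1.28% and 0.406% at 30 months, so the ages overlapped and steer 3 was lower at 30 than at 20 months. These ratios are given as a description without a test, how often other ratios separate was not counted, and reads of the family can be shared. In EX the *bta-miR-378c* percent was 13.7 in steer 2 at 30 months, against 27.4 and 25.9 in steers 1 and 3, so the ages overlapped. The *bta-miR-378d* percent in EX was 1.93, 3.32 and 5.60 at 30 months and overlapped that at 20 months, 1.30 to 2.38. The fitted changes of *bta-miR-378c* and *bta-miR-378d* from 25 to 30 months did not pass, at 0.19 ± 0.27 and 0.76 ± 0.50 in FC (edgeR FDR 0.622 and 0.299) and at 0.72 ± 0.57 and 2.32 ± 1.48 in EX (FDR 0.451 and 0.341), where library totals alone gave 1.19 and 2.88 (FDR 0.221 and 0.232). *bta-miR-378d* in EX rested on 1.5 to 53.5 counts. Summed over the 4 rows of the family, the change from 25 to 30 months was 0.43 ± 0.26 in EX (FDR 0.294) and -0.33 ± 0.30 in FC (FDR 0.432), and with library totals alone 0.93 in EX (FDR 0.0506) and -0.21 in FC (FDR 0.609).

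Across the 18 libraries, the miRNAs whose level was most like each of the 4 are given by Pearson's r of log2(CPM + 1) among the others selected in both fractions (329, or 330 for *bta-miR-378b*). The points share steers and ages, and the values are a description. *bta-miR-103* was most like *bta-miR-16a* (r = 0.71), *bta-miR-107* (0.63) and *bta-miR-486* (0.59). *bta-miR-107* was most like *bta-miR-23a* (0.81), *bta-miR-15a* (0.80) and *bta-miR-10174-3p* (0.77). *bta-miR-378* was most like *bta-miR-2284x* (0.78), *bta-miR-423-5p* (0.76) and its relative *bta-miR-378c* (0.67). It had no such likeness to *bta-miR-103* (r = -0.04) or *bta-miR-107* (r = 0.06). *bta-miR-378b* was most like *bta-miR-181c* (0.74), *bta-miR-487b* (0.69) and *bta-miR-196b* (0.64), which were all low, with mean CPM of 10.8, 8.99 and 22.9.

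For the wider setting, 24 miRNAs known from fat and lipid metabolism were counted, of which 22 were tested in each fraction. Between 25 and 30 months in EX, 4 rose and 2 fell, where 4.06% of all 345 miRNAs tested rose and 10.7% fell, with a median log2 fold change over the list of -0.15 against -0.51 for all miRNAs tested. *bta-miR-130b* and *bta-miR-130a*, known to act on the adipocyte regulator *PPARG*, rose by 2.25 ± 0.37 and 1.43 ± 0.28 (edgeR FDR 0.0073 and 0.0117). Scaled by library totals alone, 4 of the list rose and 1 fell in EX, with a median of 0.29, and over all miRNAs 6.67% rose and 6.67% fell, with a median of -0.04. Between 25 and 30 months in FC, 2 rose and 2 fell, where 6.98% of all 358 rose and 11.7% fell, with a median of 0.24 against -0.20. *bta-miR-148a*, which is abundant in liver and acts on the LDL receptor, rose between 25 and 30 months in both fractions, by 0.83 ± 0.21 in EX and 0.96 ± 0.23 in FC (FDR 0.0332 and 0.0261), and *bta-miR-26a* fell in both over the same months, with log2 fold changes of -1.77 ± 0.39 and -1.498 ± 0.40 (FDR 0.0207 and 0.0341). These changes of *bta-miR-148a* and *bta-miR-26a* also passed with library totals alone, at 1.28 and -1.32 in EX and 1.07 and -1.36 in FC. From 20 to 30 months in EX, 2 of the list rose, *bta-miR-130a* by 1.71 and *bta-miR-130b* by 1.71, and *bta-miR-335* and *bta-miR-193b* fell (FDR 0.0492 and 0.0419), where 3.77% of all miRNAs rose and 10.4% fell. Scaled by library totals alone, the 2 of the list that passed were both higher, and over all miRNAs 4.06% rose and 4.93% fell. From 20 to 30 months in FC the smallest FDR in the list was 0.0889, with 7 at an unadjusted p below 0.05, and 3.07% of all miRNAs rose and 4.19% fell. Of the liver markers, *bta-miR-122* and *bta-miR-192* did not pass between 25 and 30 months in either fraction, with log2 fold changes of 1.04 and 0.73 in EX (edgeR FDR 0.165 and 0.145) and 0.72 and 0.84 in FC (FDR 0.287 and 0.0593). Their EX values with library totals alone were 1.47 and 1.19 (FDR 0.0804 and 0.0538). *bta-miR-885*, the third, fell in FC between the same ages (FDR 0.0067), from 19.8 to 25.9 CPM to at most 0.526 CPM with 2 of 3 libraries at 0, and did not pass in EX (FDR 0.454). The 3 summed to 32179 to 131533 CPM in EX at the younger ages and to 98944 to 192794 CPM at 30 months, and in FC to 49092 to 181633 CPM and to 115629 to 208417 CPM. Of the 4 platelet and myeloid markers, *bta-miR-126-3p* rose in EX from 20 to 30 months, with a log2 fold change of 1.36 (edgeR FDR 0.0149), and the others did not pass. The part of the liver, platelet and myeloid markers in these changes was not tested.

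**Figure D4:**
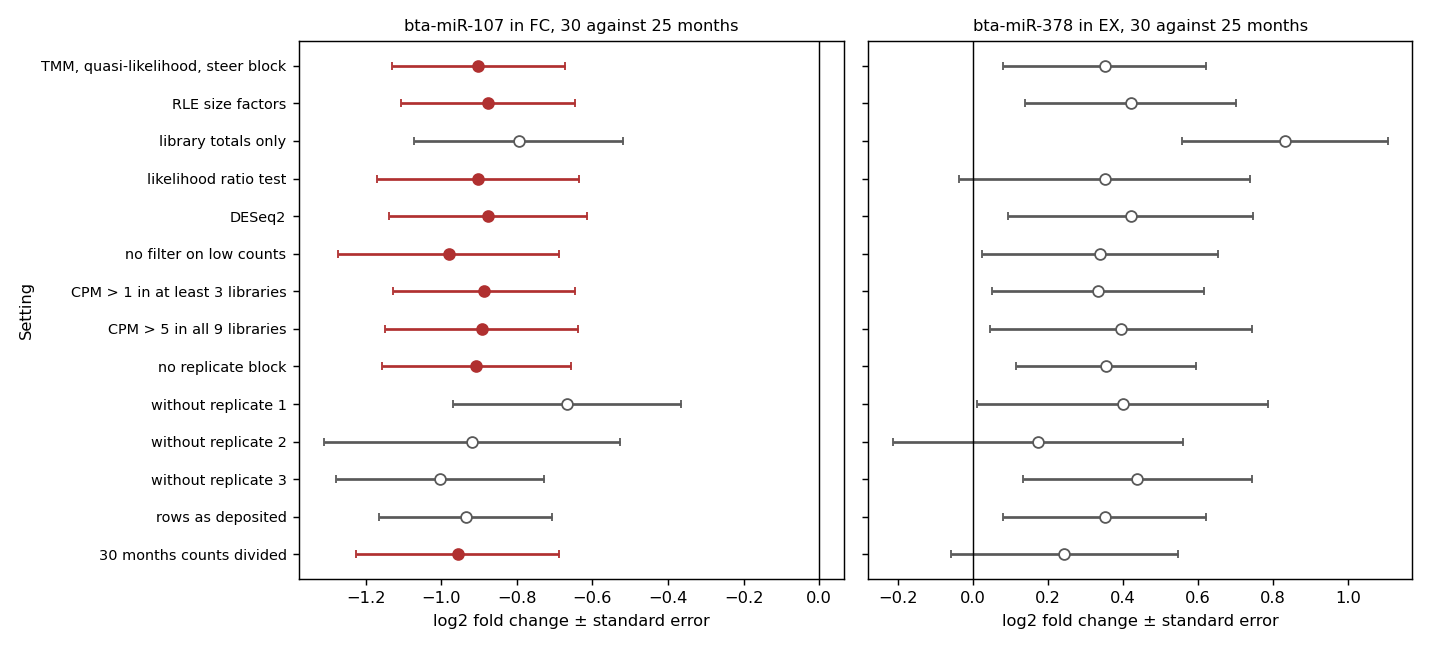
Log2 fold change between 25 and 30 months with its standard error (horizontal axis) of *bta-miR-107* in FC (left) and *bta-miR-378* in EX (right) under each setting of the processing (vertical axis). Filled red circles have FDR < 0.05. *bta-miR-107* stayed below 0 and ranged from -1.003 to -0.668, and *bta-miR-378* stayed above 0, from 0.17 to 0.83.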

How the data were processed

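Small RNA-seq was performed by the authors on 18 libraries, and reads were trimmed with cutadapt 5.0 and Trimmomatic 0.39 and checked with FastQC 0.12.1, per the labels. They mapped the reads with miRDeep2 to a Japanese Black genome built on ARS-UCD1.2 and counted them on miRBase precursors. The deposited expected counts divide shared reads, and the deposited CPM values (their table also holds a row of totals, left out here) were made by the authors with edgeR 4.0.16. In 4 FC libraries 77 to 101 rows of the counts did not match the CPM values (within 0.001 of the value or 0.02 counts). These were the libraries of steers 1, 2 and 3 at 30 months and of steer 3 at 25 months. The rows were recomputed from the CPM values, and the 4 miRNAs were not among them.

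Counts were rounded. A miRNA was kept in a fraction where 3 or more of the 9 libraries exceeded 5 CPM, and was tested in edgeR 4.0.16 (R 4.3.3, limma 3.58.1) by the quasi-likelihood method with TMM factors, age and steer, or, for EX against FC, all 18 libraries with fraction, age and steer. P values were adjusted by Benjamini and Hochberg over all miRNAs tested, and intervals are 95%. Replicate numbers mark the steer per the study's sample table; age-adjusted profiles of the same steer correlated at a mean r of 0.02 in EX and 0.12 in FC, those of other steers at -0.01 and -0.06. No 2 libraries of a group agreed within sampling noise (chi-square per degree of freedom at least 196). Ratios were tested by exact sign-flip permutation over 3 steers. DESeq2 1.42.0, other scalings, filters and blocks, each steer left out, the rows as deposited, and 30 months counts divided by their most common count (the densest window 25% wide among whole counts of at least 5) were alternatives. The method was tested on simulated data. Tables and figures used Python 3.11.15, numpy 2.4.6, pandas 2.3.3 and matplotlib 3.10.9. The named miRNAs are the 4, their miR-378 relatives, the 3 most alike each, the cell markers, and up to 4 of the fat and lipid list by FDR. The miRNAs, lists and tests were chosen with earlier results of these data known. The RT-qPCR and carcass data were not analysed here.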

Additional observations from a re-analysis of the deposited data

How the results depend on the processing

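Of 46 results, 26 kept their direction under each setting that was run for them (not all settings apply to all results, and the ratios were recomputed only without 1 steer, without the block and with the rows as deposited) and 2 gained or lost a call, both of *bta-miR-107* in FC. Between 25 and 30 months its log2 fold change lost FDR < 0.05 with library totals alone (-0.80, FDR 0.0770), with the rows as deposited (-0.94, FDR 0.0654) and without any 1 of the steers (-1.003 to -0.668). Between 20 and 30 months it passed with the likelihood ratio test (-0.81, FDR 0.0199), DESeq2 (-0.79, FDR 0.0198), CPM > 5 in all 9 libraries (-0.81, FDR 0.0412) and the divided counts (-0.90, FDR 0.0385). The cause was not tested.

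Without the steer as a block, *bta-miR-107* in FC between 25 and 30 months was at -0.91 (FDR 0.0269), and the block changed no call of the 4 miRNAs. With the paired block left out, *bta-miR-103* in EX between 20 and 30 months was at 0.032 and *bta-miR-378b* in EX between 25 and 30 months at 0.68, each of the opposite sign.

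The remaining changes of sign were in values that did not pass in any setting. With library totals alone the values were 0.24 for the difference between EX and FC in the change of *bta-miR-103* from 25 to 30 months, 0.35 for *bta-miR-103* in EX and 0.15 for the summed *bta-miR-103* and *bta-miR-107* in EX from 20 to 30 months, -0.016 and -0.017 for *bta-miR-107* from 20 to 25 months in EX and in FC, 0.071 for *bta-miR-378* in EX against FC and 0.36 for *bta-miR-378b* in EX from 25 to 30 months. *bta-miR-103* in EX from 20 to 30 months was 0.11 with RLE and with DESeq2, 0.033 with no filter, 0.085 with CPM > 1 and 0.077 with CPM > 5 in all 9 libraries. *bta-miR-378* in EX against FC was 0.0496 with RLE and with DESeq2, 0.054 with CPM > 5 in all 9 libraries and 0.059 with CPM > 1. *bta-miR-378b* was -0.37 in EX against FC with the plasma sample as block, and 1.41 and 0.13 in EX from 25 and 20 to 30 months with the divided counts.

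Leaving out 1 steer gave *bta-miR-103* a range of -0.27 to 0.013 for the difference in change from 25 to 30 months, -0.044 to 0.17 for EX against FC, -0.25 to 0.15 in EX from 20 to 30 months and -0.40 to 0.24 in FC from 20 to 25 months. For *bta-miR-107* it was -0.034 to 0.41 and -0.11 to 0.37 for the difference in change from 20 and 25 to 30 months, and -0.17 to 0.26 in EX and -0.15 to 0.22 in FC from 20 to 25 months. For *bta-miR-378* it was -0.088 to 0.072 for EX against FC, and -0.32 to 0.12 in EX and -0.26 to 0.55 in FC from 20 to 25 months. For *bta-miR-378b* in EX it was -3.43 to 0.29 from 20 to 25 and -0.34 to 1.61 from 25 to 30 months, and for the summed miR-378 family in FC -0.27 to 0.10 from 20 and -0.56 to 0.065 from 25 to 30 months. The log2 ratio of *bta-miR-103* to *bta-miR-107* ranged from -0.24 to 0.051 in FC from 20 to 25 months and from -0.085 to 0.10 for EX against FC. At 30 months in EX, the counts of at least 5 were most crowded around 39 to 86 in each library, in a window 25% wide. This value was used for the divided counts. The younger EX libraries had such a value too, 10, 15 and 43 at 20 months and 26, 38 and 44 at 25 months. Only libraries at 30 months were divided. At 30 months in EX the counts of *bta-miR-378b*, 1.33 to 23.3, were each below this value. Divided by it, those of *bta-miR-378* were 18.5, 14.5 and 24.5 in steers 1, 2 and 3. Those of *bta-miR-107* were 28.8, 17.4 and 42.9, and those of *bta-miR-103* 95.1, 45.7 and 81.9. What this value stands for was not tested.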
